A study of Mus musculus with 9 samples.

Results

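The transcripts described here encode 10 enzymes that make and salvage pyrimidine nucleotides or reduce ribonucleotides: Cad, Dhodh, Umps, Ctps, Ctps2, Uck2, Nme1, Tk1, Rrm1 and Rrm2. They were chosen by name, with earlier results of these data known, and each was found as 1 gene among the 53380 rows of the count tables. RNA was sequenced in 9 libraries from a mouse line of T-ALL (T cell acute lymphoblastic leukemia), which arose in tumors of EμSRα-tTA/tet-O-MYC mice of the FVB/N strain. In these cells the tetracycline-controlled transactivator tTA, driven by the lymphoid EμSRα element, switches on a human MYC transgene, and doxycycline blocks it. The groups were MYC on (mock treatment), MYC intermediate (doxycycline at 20 pg/mL) and MYC off (doxycycline at 500 pg/mL), each with 3 libraries taken at 48 h, and all groups carried both transgenes. Whether replicates came from separate cultures or clones is not in the labels, so p-values cover only library-to-library spread, which may be technical.

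Cells obtain pyrimidines by de novo synthesis, in which CAD, DHODH and UMPS build UMP from glutamine, bicarbonate, aspartate and phosphoribosyl pyrophosphate, or by salvage, in which kinases such as UCK2 and TK1 phosphorylate nucleosides taken up from outside. CTP synthases aminate UTP to CTP, nucleoside diphosphate kinases such as NME1 exchange phosphate between di- and triphosphates, and ribonucleotide reductase, formed by RRM1 and RRM2, reduces ribonucleotides to the deoxyribonucleotides of DNA. Proliferating lymphoid cells depend on this supply for RNA and DNA synthesis, and CAD is a textbook target of MYC.

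Totals ranged from 18705516 to 39678799 counts per library. The human transgene reached 1260 ± 75.4 CPM (counts relative to the library total) with MYC on, 408.3 ± 23 CPM with MYC intermediate and 3.785 ± 0.454 CPM with MYC off (SD, n = 3 each). The mouse Myc gene had 0 counts in every library, which by counting error alone allows at most 0.0756 to 0.16 CPM. The counting settings are not known, so this limit holds only if reads of mouse Myc were assigned to it. All 12 T cell markers were detected, with a summed level of 5230 to 5370 CPM with MYC on, 8470 to 8640 CPM with MYC intermediate and 10800 to 11200 CPM with MYC off, so the sum was higher at each lower MYC level. The B cell markers Cd79b, Ms4a1 and Pax5 were at 0, and the summed level of the B cell list was at most 0.267 CPM. The 6 myeloid markers summed to 26.6 to 30.9 CPM with MYC on, 32.2 to 35.9 CPM with MYC intermediate and 40.6 to 43.6 CPM with MYC off, with Lyz2, Cd14 and Adgre1 at 0. Nearly all of that sum came from Itgam, with means of 3.88, 13.33 and 22.12 CPM in the same order, and Csf1r, which ran the other way (24.76, 20.66 and 19.55 CPM). The 4 erythroid markers summed to at most 0.102 CPM and the 5 stromal and endothelial markers to 6.48 to 9.5 CPM, with Cdh5 and Kdr at 0 in all groups. The part of these markers in the results was not tested.

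The de novo enzymes, the CTP synthase Ctps and the kinases Uck2 and Nme1 fell when MYC was lowered, while the thymidine kinase Tk1 and the reductase subunit Rrm2 rose. Between MYC off and MYC on cells, 6 of the 10 genes were called lower (Cad, Dhodh, Umps, Ctps, Uck2 and Nme1), against 27.4% of all 14098 genes tested, and 2 were called higher (Tk1 and Rrm2), against 27.5%. Ctps2 and Rrm1 were not called. A gene was called at an adjusted p under 0.01 in edgeR's quasi-likelihood test, with Benjamini-Hochberg adjustment over all genes tested. The median log2 fold change of the 10 genes was -1.13, against 0.029 over all genes tested, and errors of log2 fold changes are given as SE throughout. All 10 genes passed the filter on low counts, and their counts in a single library lay between 868 (Dhodh) and 125153 (Rrm2). Libraries of MYC off and MYC on did not overlap in CPM for 9 of the 10 genes, which was also the case for 70.0% of all genes tested. For the smaller steps, 53.5% of all genes did not overlap between MYC intermediate and MYC on, and 47.6% between MYC off and MYC intermediate. A lack of overlap, given for single genes below, is thus common. CPM values and fold changes are relative to the library total, so a gain or loss of RNA per cell and a change in the mix of cells cannot be told apart.

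**Figure D1:**
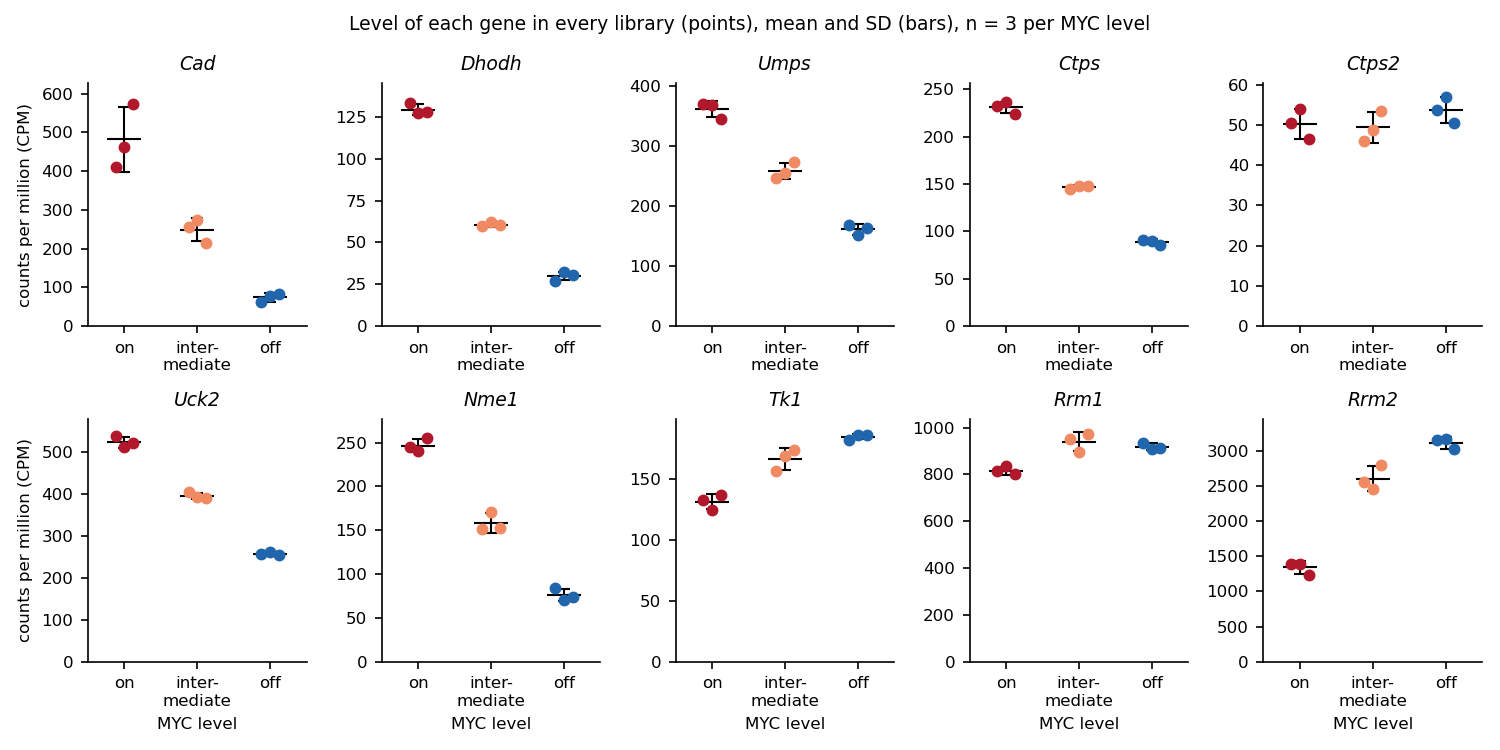
Level of each of the 10 genes in CPM (y axis, from 0) in the 3 libraries of MYC on, MYC intermediate and MYC off cells (x axis), with each point a library and the bars the mean ± SD. Cad, Dhodh, Umps, Ctps, Uck2 and Nme1 step down at each MYC level with no overlap between levels, Rrm2 and Tk1 step up, and the levels of Ctps2 overlap. Of all genes tested, 53.5% did not overlap between MYC intermediate and MYC on, and 47.6% between MYC off and MYC intermediate.

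Promoter sequence was read for these genes because most of them moved together. RefSeq windows from 250 bases before to 50 bases after an annotated transcription start (GRCm38.p6, the assembly named mm10) were available for 9 of the 10 genes, and Dhodh was not matched. A search on both strands for the canonical E-box that MYC can bind (CACGTG) found it in 1 of the 9 genes, Nme1, against 8.09% of all 26994 genes with a window. An E2F site, searched as TTTCCCGC, TTTCGCGC, TTTGCCGC or TTTGGCGC, was in 0 of the 9 genes, against 2.6% of all genes. At so low a share, 0 of 9 does not set the genes apart, and the search took only exact matches of these letters. The CCAAT box (CCAAT), which does not overlap these letters, was in 4 of the 9 genes (Ctps2, Uck2, Rrm1 and Rrm2), against 41% of all genes. The 4 windows shown cover the gene with the deepest fall, the gene with an E-box and both reductase subunits. Capitals mark the E-box in Nme1 and the CCAAT boxes in Rrm1 and Rrm2, and the Cad window has no match. Sites beyond the windows, such as past 50 bases after the start, were not searched.
Cad (chr5:31054530-31054829, + strand): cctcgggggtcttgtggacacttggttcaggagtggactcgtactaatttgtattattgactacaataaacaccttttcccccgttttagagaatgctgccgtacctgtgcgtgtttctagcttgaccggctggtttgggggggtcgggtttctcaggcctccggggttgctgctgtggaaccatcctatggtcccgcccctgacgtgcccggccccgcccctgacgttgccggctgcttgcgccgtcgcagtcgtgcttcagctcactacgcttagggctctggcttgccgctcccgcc
Nme1 (chr11:93968223-93968522, - strand): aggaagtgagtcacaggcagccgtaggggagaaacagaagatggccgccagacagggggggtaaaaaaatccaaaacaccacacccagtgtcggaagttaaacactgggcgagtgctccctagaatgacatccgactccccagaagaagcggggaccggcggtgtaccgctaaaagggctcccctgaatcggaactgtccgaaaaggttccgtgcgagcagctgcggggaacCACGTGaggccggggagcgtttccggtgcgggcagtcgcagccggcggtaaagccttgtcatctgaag
Rrm1 (chr7:102441445-102441744, + strand): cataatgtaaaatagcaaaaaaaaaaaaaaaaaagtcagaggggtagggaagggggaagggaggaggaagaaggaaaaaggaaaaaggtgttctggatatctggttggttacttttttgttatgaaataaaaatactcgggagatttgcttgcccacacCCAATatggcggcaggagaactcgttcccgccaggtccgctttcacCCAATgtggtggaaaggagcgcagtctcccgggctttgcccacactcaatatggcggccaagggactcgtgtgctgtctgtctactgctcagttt
Rrm2 (chr12:24708004-24708303, + strand): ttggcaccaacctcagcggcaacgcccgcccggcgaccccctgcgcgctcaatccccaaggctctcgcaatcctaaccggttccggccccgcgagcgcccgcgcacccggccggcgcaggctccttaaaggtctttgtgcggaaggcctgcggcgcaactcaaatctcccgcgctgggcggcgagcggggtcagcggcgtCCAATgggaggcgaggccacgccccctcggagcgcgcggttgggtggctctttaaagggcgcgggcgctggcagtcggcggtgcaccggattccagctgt
The E-box of Nme1 began 18 bases before the start in this window, and a further E-box lay 29 bases before a second annotated start of the gene (window chr11:93967976-93968275). The CCAAT boxes began 91 and 45 bases before the start in Rrm1 and 50 bases before it in Rrm2. These matches describe letters in a window and were not tested for binding.

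Cad encodes the large multifunctional protein that carries out the opening steps of the pathway (chr5:31054780-31078479, + strand, mm10, protein coding). Its level was 410.1, 463.1 and 572.3 CPM with MYC on, 255, 273.9 and 215.8 CPM with MYC intermediate, and 61.9, 77.23 and 83.06 CPM with MYC off. The 3 levels did not overlap, and the MYC on libraries were the most spread of any group. Cad was 6.68-fold lower in MYC off than in MYC on cells (-2.74 ± 0.13 on the log2 scale, SE; edgeR adjusted p = 3.09e-11), the deepest fall of the 10 genes. It was already lower in MYC intermediate than in MYC on cells (-0.95 ± 0.12, edgeR adjusted p = 8.69e-06) and fell by a further 1.79 on the log2 scale between MYC intermediate and MYC off (SE 0.12, edgeR adjusted p = 2.11e-08).

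Dhodh encodes the enzyme of the inner mitochondrial membrane that oxidizes dihydroorotate to orotate (chr8:109591343-109608673, - strand, mm10). It had 133.1, 127.6 and 127.7 CPM with MYC on, 59.71, 61.98 and 60.32 CPM with MYC intermediate, and 27.19, 32.23 and 30.4 CPM with MYC off. Replicates lay within a few CPM of each other and the levels were far apart. The gene was 4.44-fold lower in MYC off than in MYC on cells (-2.15 ± 0.066, edgeR adjusted p = 4.14e-13). Its 2 steps were of nearly equal size on the log2 scale, -1.08 ± 0.064 for MYC intermediate against MYC on (edgeR adjusted p = 4.44e-09) and -1.07 ± 0.065 for MYC off against MYC intermediate (edgeR adjusted p = 6.9e-09).

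Umps encodes the bifunctional enzyme that turns orotate into UMP (chr16:33954782-33967038, - strand, mm10). Its libraries held 370.4, 367.9 and 346.1 CPM with MYC on, 247.7, 255 and 273.1 CPM with MYC intermediate, and 169, 151.6 and 163 CPM with MYC off. The fall was shallower than in Cad and Dhodh but again without overlap, 2.29-fold between MYC off and MYC on (-1.20 ± 0.062, edgeR adjusted p = 1.28e-10). The steps were -0.47 ± 0.061 for MYC intermediate against MYC on (edgeR adjusted p = 1.26e-05) and -0.72 ± 0.061 for MYC off against MYC intermediate (edgeR adjusted p = 2.45e-07). An antisense gene on the opposite strand, Gm15829, shares 213 bases with the exons of Umps, or 6.11% of them, and had 6830 counts over the 9 libraries against 63214 for Umps. The kit did not mark the strand, so reads of that stretch cannot be told apart by strand.

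The synthesis of CTP is shared by a pair of paralogs that behaved differently. Ctps (chr4:120539868-120570276, - strand, mm10) had 232.1, 236.3 and 224.5 CPM with MYC on, 144.3, 147.6 and 147.9 CPM with MYC intermediate, and 91.06, 89.85 and 85.88 CPM with MYC off. Ctps2 (chrX:162901238-163032508, + strand, mm10) had 50.43, 53.83 and 46.47 CPM with MYC on, 46.02, 48.68 and 53.53 CPM with MYC intermediate, and 53.68, 56.96 and 50.57 CPM with MYC off. Ctps fell at each step without overlap, whereas the Ctps2 libraries of the 3 groups were interleaved. For Ctps the fall was 2.66-fold between MYC off and MYC on (-1.41 ± 0.054, edgeR adjusted p = 4.31e-12), with steps of -0.64 ± 0.053 for MYC intermediate against MYC on (edgeR adjusted p = 1.21e-07) and -0.77 ± 0.053 for MYC off against MYC intermediate (edgeR adjusted p = 2.82e-08). For Ctps2 the log2 fold change was 0.065 for MYC off against MYC on, with a 95% interval of -0.10 to 0.23 (edgeR adjusted p = 0.48). The intervals for its steps were -0.18 to 0.15 (MYC intermediate against MYC on) and -0.09 to 0.24 (MYC off against MYC intermediate), so a change as large as that of Ctps lay outside all 3.

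Uck2 encodes the uridine-cytidine kinase that salvages both ribonucleosides (chr1:167222883-167285320, - strand, mm10). It had 538.7, 511.8 and 521.4 CPM with MYC on, 404.7, 392.2 and 390.6 CPM with MYC intermediate, and 257.1, 262.3 and 254.3 CPM with MYC off. The groups were narrow and did not overlap. Uck2 was 2.08-fold lower in MYC off than in MYC on cells (-1.06 ± 0.051, edgeR adjusted p = 6.59e-11), the smallest of the 6 called falls. Its steps were -0.39 ± 0.051 for MYC intermediate against MYC on (edgeR adjusted p = 1.35e-05) and -0.66 ± 0.051 for MYC off against MYC intermediate (edgeR adjusted p = 9.4e-08). On the opposite strand, Gm2453 shares 2.75% of the Uck2 exon bases.

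Nme1 encodes a subunit of nucleoside diphosphate kinase (chr11:93956979-93968521, - strand, mm10), and its window carried the E-box shown above. Its level was 244.7, 240 and 254.9 CPM with MYC on, 151, 170.8 and 152.1 CPM with MYC intermediate, and 83.75, 70.43 and 74.04 CPM with MYC off. Each level was clear of the next, and the gene was 3.31-fold lower in MYC off than in MYC on cells (-1.73 ± 0.077, edgeR adjusted p = 2.41e-11). The fall was -0.63 ± 0.075 for MYC intermediate against MYC on (edgeR adjusted p = 5.44e-06) and -1.09 ± 0.076 for MYC off against MYC intermediate (edgeR adjusted p = 2.76e-08). The annotated gene Gm20390, whose exons overlap those of both Nme1 and Nme2, shares 418 bases with Nme1 on the same strand, or 12.5% of its exon bases. It had 18 counts over the 9 libraries, against 38348 for Nme1. The counting settings are not known, so reads of the shared stretch may have been left out of both genes. The 18 counts do not bound that loss.

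Tk1 encodes cytosolic thymidine kinase, the salvage enzyme for thymidine whose amount is known to follow S phase (chr11:117815526-117826092, - strand, mm10). Its libraries held 132.5, 124.7 and 137.3 CPM with MYC on, 156.4, 168.7 and 174 CPM with MYC intermediate, and 182.3, 186.3 and 186.1 CPM with MYC off. The lowest treated library lay above the highest MYC on library. Tk1 was 1.37-fold higher in MYC off than in MYC on cells (0.46 ± 0.058, edgeR adjusted p = 4.63e-06) and 1.27-fold higher in MYC intermediate than in MYC on cells (0.35 ± 0.058, edgeR adjusted p = 0.000153). Between MYC off and MYC intermediate the libraries did not overlap either, but the difference of 0.11 ± 0.057 was not called (edgeR adjusted p = 0.157). On the opposite strand, Afmid shares 1.6% of the Tk1 exon bases.

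Rrm1 encodes the large, catalytic subunit of ribonucleotide reductase (chr7:102441695-102469771, + strand, mm10). It had 813.7, 834.5 and 800 CPM with MYC on, 953.3, 895.1 and 971.5 CPM with MYC intermediate, and 935.9, 906.9 and 911.8 CPM with MYC off. All treated libraries lay above all MYC on libraries, and the treated groups overlapped each other. The log2 fold change was 0.22 ± 0.052 for MYC intermediate against MYC on (edgeR adjusted p = 0.00329) and 0.14 ± 0.052 for MYC off against MYC on (95% interval 0.03 to 0.25, edgeR adjusted p = 0.0315, not called). The first call was lost without MYC on replicate 1 (log2 fold change 0.22, edgeR adjusted p = 0.0122), MYC on replicate 2 (0.22, edgeR adjusted p = 0.0111), MYC on replicate 3 (0.21, edgeR adjusted p = 0.0138), MYC intermediate replicate 1 (0.20, edgeR adjusted p = 0.0105) or MYC intermediate replicate 3 (0.20, edgeR adjusted p = 0.0131), and the second comparison was called with library totals alone as scaling (edgeR adjusted p = 0.00561). For MYC off against MYC intermediate the log2 fold change was -0.078 ± 0.052 (edgeR adjusted p = 0.264).

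Rrm2 encodes the small, radical-bearing subunit of the reductase, which is made and degraded with the cell cycle (chr12:24708241-24714146, + strand, mm10). It had 1393, 1393 and 1238 CPM with MYC on, 2552, 2463 and 2803 CPM with MYC intermediate, and 3154, 3172 and 3022 CPM with MYC off. The 3 levels did not overlap and ran opposite to those of the de novo enzymes. Rrm2 was 2.27-fold higher in MYC off than in MYC on cells (1.18 ± 0.063, edgeR adjusted p = 2.05e-10) and 1.96-fold higher in MYC intermediate than in MYC on cells (0.97 ± 0.063, edgeR adjusted p = 1.15e-08). The remaining difference, MYC off against MYC intermediate, was 0.21 ± 0.062 and was not called (edgeR adjusted p = 0.0142), but it was called without MYC intermediate replicate 3 (0.26, edgeR adjusted p = 0.00483), with library totals alone (edgeR adjusted p = 0.00329), without a count filter (edgeR adjusted p = 0.0072) and in DESeq2 (adjusted p = 0.00741).

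Over the smaller steps, 6 of the 10 genes were called lower in MYC intermediate than in MYC on cells, against 17.2% of all genes tested, and 3 were called higher (Tk1, Rrm1 and Rrm2), against 17.4%. Between MYC off and MYC intermediate 6 were called lower, against 14.7% of all genes, and 0 higher, against 9.95%. The genes called lower were Cad, Dhodh, Umps, Ctps, Uck2 and Nme1 in each of the 3 comparisons. The median log2 fold change of the 10 genes was -0.43 for MYC intermediate against MYC on and -0.69 for MYC off against MYC intermediate, where all genes had medians of 0.00794 and 0.007. The comparisons share libraries and are not independent of each other.

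**Figure D2:**
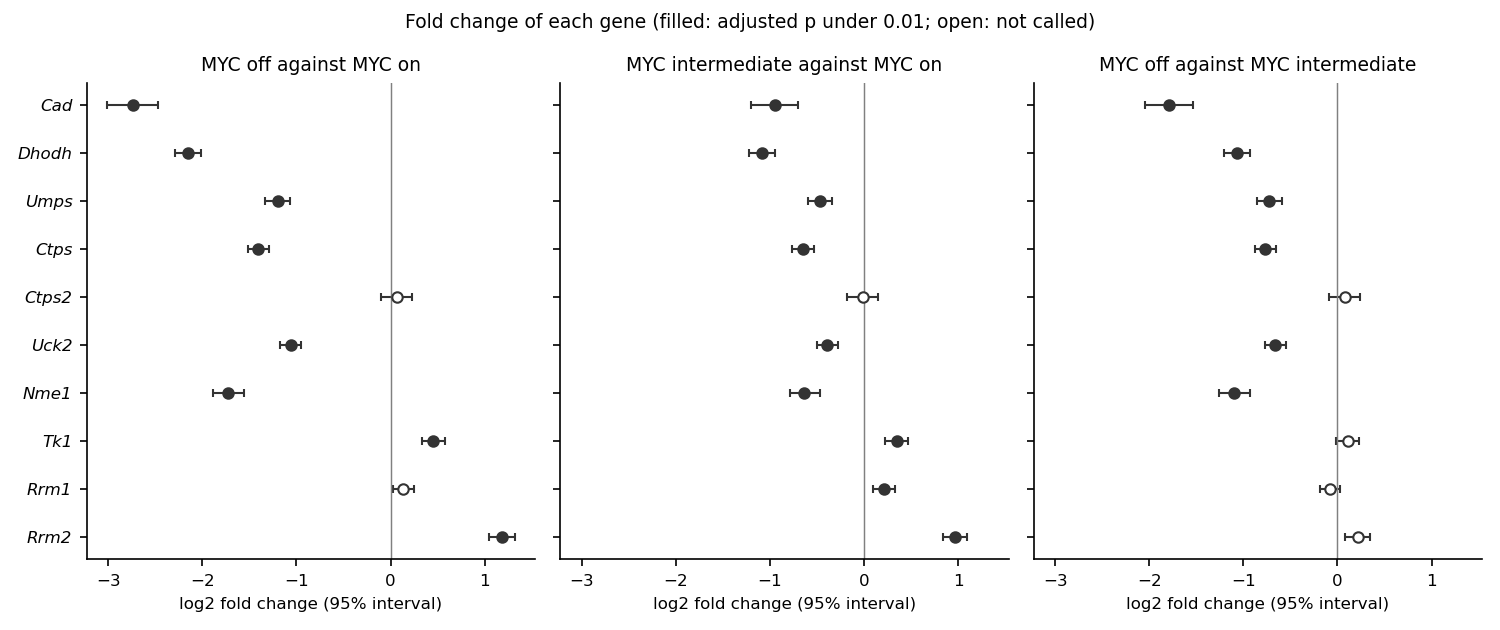
Log2 fold change (x axis) of each of the 10 genes (y axis) in the 3 comparisons, with 95% intervals from the edgeR fit, filled points called at an adjusted p under 0.01 and open points not called. Cad has the largest fall for MYC off against MYC on (-2.74), and the intervals of Ctps2 include 0 in each panel.

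Between the ends, the middle dose was read against the fall of the transgene itself. The transgene was at 32.4% of its MYC on mean in MYC intermediate and at 0.3% in MYC off cells, so 19.4% of its log2 change had been reached at the middle dose. At that dose Cad was at 51.5% of its MYC on level, Dhodh at 46.9%, Nme1 at 64.1%, Ctps at 63.5%, Umps at 71.5% and Uck2 at 75.6%. In log2 terms, the genes that fell had covered between 34.5% (Cad) and 50.4% (Dhodh) of their change, and of the genes that rose, Tk1 had covered 76.3% and Rrm2 82%. The log2 share of the transgene rests on its low MYC off level of 3.785 CPM. In percent of the MYC on mean, the transgene (32.4%) lay below each gene that fell (46.9% to 75.6%) at the middle dose. On the log2 scale too, the transgene fell further at the middle dose (-1.61 ± 0.071) than each of these genes (-0.39 to -1.08). Its order against these genes thus depends on the measure, the share of the change between the ends or the level left. A contrast of the middle dose with the midpoint of both ends, taken on the log2 scale, was called for 1 of the 10 genes, against 1.89% of all genes tested. That gene was Rrm2, which lay 0.38 ± 0.053 above the midpoint (edgeR adjusted p = 0.000678). Cad lay 0.42 ± 0.1 above its midpoint (edgeR adjusted p = 0.0233) and was called with the replicate number as a block (0.44, edgeR adjusted p = 0.00668), without MYC on replicate 3 (0.50, edgeR adjusted p = 0.00517) and without MYC intermediate replicate 3 (0.52, edgeR adjusted p = 0.00576). Nme1 lay 0.23 ± 0.064 above the midpoint (edgeR adjusted p = 0.0511) and was called without MYC off replicate 1 (0.29, edgeR adjusted p = 0.00548). Dhodh sat at the midpoint within its error (-0.0078 ± 0.056, edgeR adjusted p = 0.956).

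**Figure D3:**
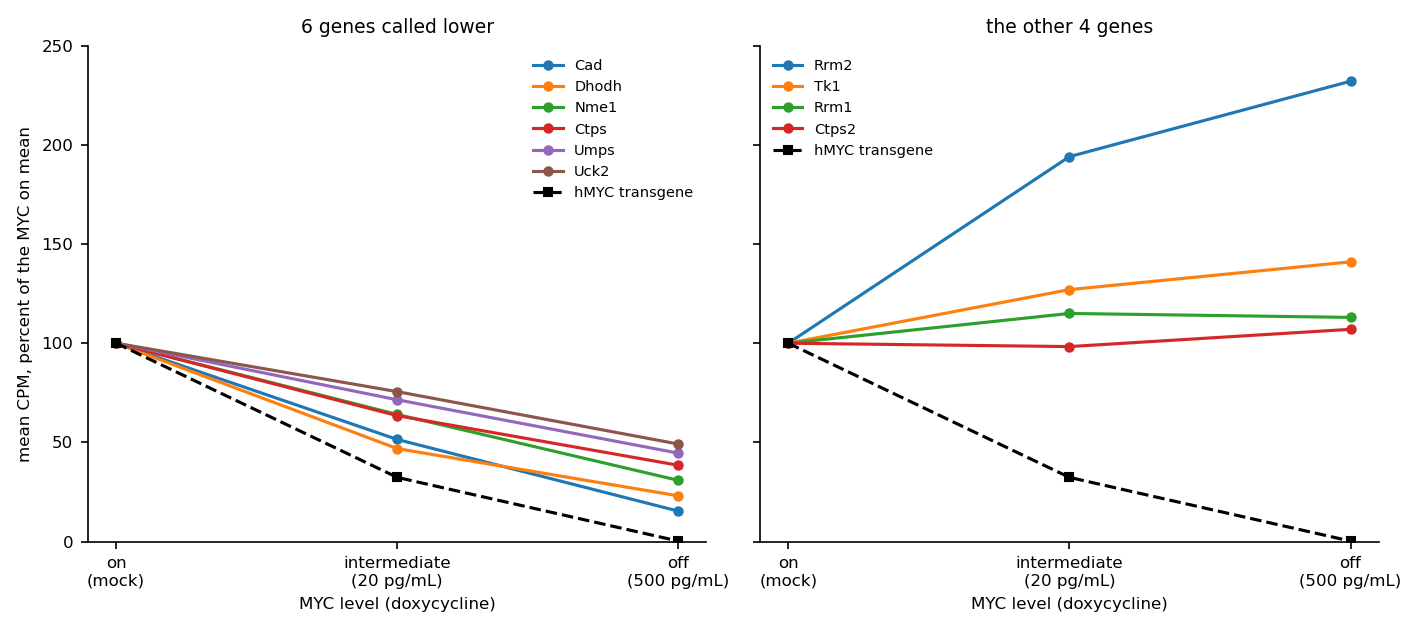
Mean CPM as percent of the MYC on mean (y axis) at each doxycycline dose (x axis, in categories and not to scale) for the 6 genes called lower (left) and the other 4 genes (right), with the hMYC transgene as a dashed line in both panels. The 6 genes reach 15.4% (Cad) to 49.2% (Uck2) of their MYC on level in MYC off cells, and Rrm2 reaches 232%.

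Per length, in the deposited TPM values (transcripts scaled for gene length and library), the order of the 10 genes changed with MYC. In MYC on cells it ran Rrm2 (1629 ± 112 TPM), Umps (349.3 ± 13.5), Uck2 (322.8 ± 6.62), Rrm1 (249.5 ± 6.64), Nme1 (248.3 ± 6.87), Ctps (234.5 ± 7.1), Cad (198.2 ± 34), Tk1 (85.15 ± 3.72), Dhodh (68.88 ± 1.41) and Ctps2 (35.84 ± 2.8 TPM, SD, n = 3 each). Among neighbours in that order, Rrm1 and Nme1 overlapped, as did Ctps and Cad. In MYC intermediate cells Rrm1 (283 ± 14.8 TPM) was next after Rrm2 (3120 ± 264 TPM), and Dhodh (31.8 ± 0.988 TPM) was the lowest, overlapping Ctps2 (34.74 ± 3.4 TPM). In MYC off cells the order was Rrm2 (3764 ± 74.7 TPM), Rrm1 (279.1 ± 2.18), Uck2 (158 ± 3.11), Umps (154.8 ± 7.58), Tk1 (119.1 ± 3.14), Ctps (89.76 ± 1.71), Nme1 (76.15 ± 5.95), Ctps2 (38.11 ± 2.17), Cad (30.34 ± 4.89) and Dhodh (15.85 ± 1.52 TPM), where only Uck2 and Umps overlapped. Cad thus stood below Ctps2 in MYC off cells. The lengths are unions of all annotated exons, 11012 bases for Rrm1 against 2771 for Rrm2, so a TPM value understates a gene whose long exons are little used.

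Ratios of reads per kilobase within each library compared isoenzymes and subunits. They use the same exon-union lengths, so the level of a ratio shares the limit given for TPM. Ctps outnumbered Ctps2 6.56 ± 0.31 to 1 in MYC on, 4.24 ± 0.27 to 1 in MYC intermediate and 2.36 ± 0.098 to 1 in MYC off cells (SD over 3 libraries, as for all ratios). Uck2 outnumbered its paralog Uck1 3.13 ± 0.19 to 1, 2.16 ± 0.16 to 1 and 1.14 ± 0.02 to 1 at the same levels. In both pairs the member that fell thus came closer to the level of its paralog, and for the uridine-cytidine kinases the paralog itself rose, since Uck1 was 1.32-fold higher in MYC off than in MYC on cells (0.40 ± 0.063, edgeR adjusted p = 4.65e-05). The reductase moved the other way, with 6.53 ± 0.34 reads per kilobase of Rrm2 for each of Rrm1 in MYC on, 11 ± 0.42 in MYC intermediate and 13.5 ± 0.37 in MYC off cells. Against Rrm2b, the small subunit induced by p53, Rrm2 stood 291 ± 18, 602 ± 81 and 650 ± 42 to 1, and Rrm2b itself differed by 0.032 ± 0.1 between MYC off and MYC on cells (edgeR adjusted p = 0.801). Nme1 outnumbered Nme2 9.79 ± 1, 11.7 ± 1 and 21.5 ± 3.3 to 1, although both fell. This ratio is uncertain, since Gm20390 shares 12.5% of the exon bases of Nme1 and 48.9% of those of Nme2. Nme2 also had only 50, 37 and 34 counts in the MYC off libraries. Tk1 stood 8.75 ± 0.59, 11.3 ± 1.3 and 9.66 ± 0.81 to 1 over Tk2, the mitochondrial thymidine kinase. Tk2 was 0.32 ± 0.11 higher in MYC off than in MYC on cells and was not called (edgeR adjusted p = 0.0148), though it was without MYC off replicate 3 (0.39, edgeR adjusted p = 0.00863) and with library totals alone (edgeR adjusted p = 0.00766).

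Within the de novo pathway, Umps stood 1.8 ± 0.35 to 1 over Cad in MYC on, 2.48 ± 0.43 to 1 in MYC intermediate and 5.21 ± 1 to 1 in MYC off cells. Dhodh stood at 0.355 ± 0.066, 0.319 ± 0.037 and 0.527 ± 0.049 of Cad. Of these 8 ratios, 6, the uncertain Nme1/Nme2 among them, differed by more than 1 in log2 between MYC off and MYC on cells. The largest differences were those of Umps/Cad (1.53), Ctps/Ctps2 (-1.47) and Uck2/Uck1 (-1.46). In the exact two-sided permutation test each of these 3 differences had p = 0.1, the smallest that 3 libraries against 3 can give, and 0.126 after adjustment over 24 tests, so no ratio could pass. The Tk1/Tk2 ratio differed by 0.14 between MYC off and MYC on cells (exact permutation p = 0.2).

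**Figure D4:**
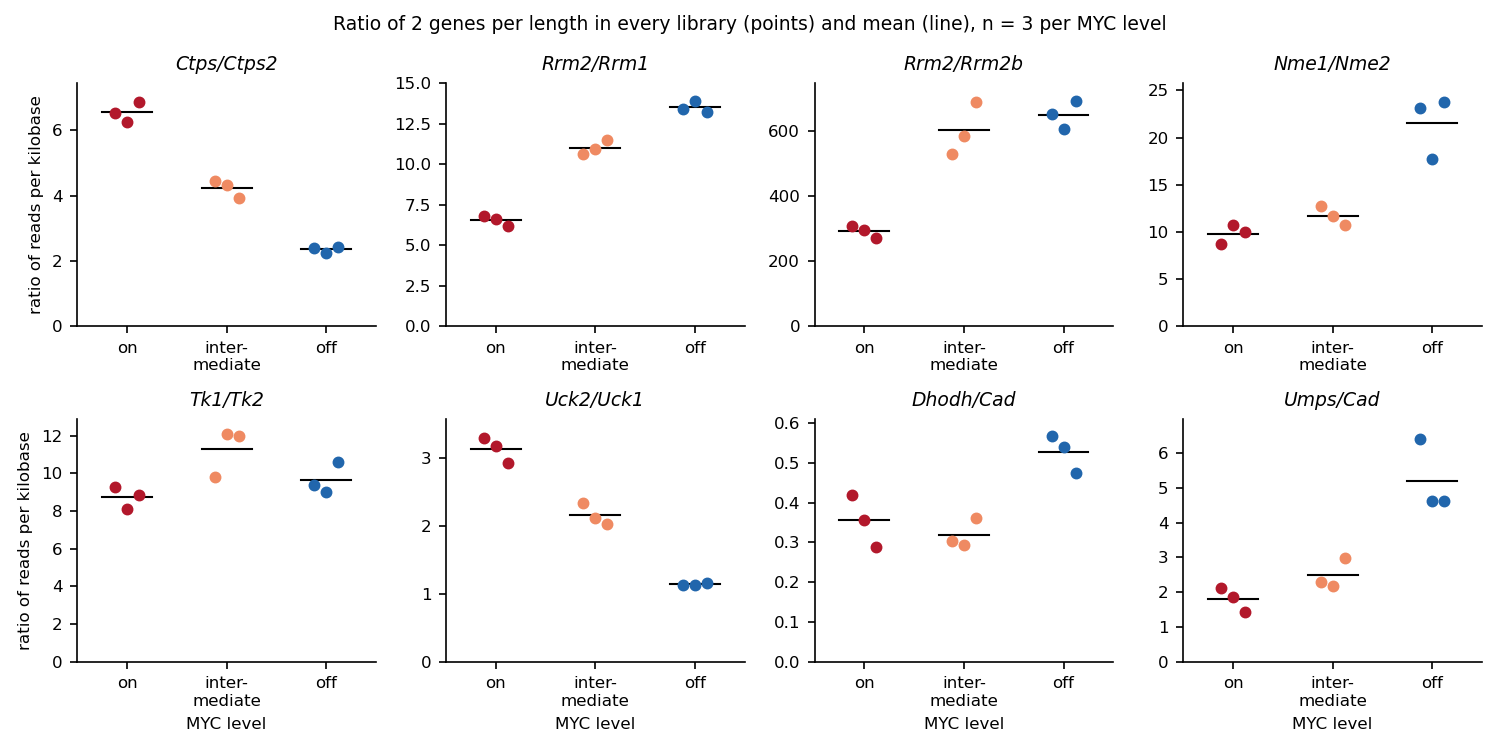
Ratio of reads per kilobase of 2 genes (y axis, from 0) in each library (points) with the mean (line) in MYC on, MYC intermediate and MYC off cells (x axis). Ctps/Ctps2 and Uck2/Uck1 fall at each level, Rrm2/Rrm1 climbs to a mean of 13.5 in MYC off cells, and the Tk1/Tk2 libraries of MYC off overlap those of MYC on.

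The other genes of pyrimidine metabolism were read from a list of 56, of which 42 were tested. Of these, 23 were called lower and 6 higher in MYC off than in MYC on cells (median log2 fold change -0.29), where 27.4% and 27.5% of all genes were, 12 lower and 4 higher in MYC intermediate than in MYC on cells (-0.11), where 17.2% and 17.4% of all genes were, and 15 lower and 2 higher in MYC off than in MYC intermediate cells (-0.19), where 14.7% and 9.95% were. Genes that supply precursors had 5 of 8 lower and 0 higher in MYC off than in MYC on cells, beside the same 27.4% and 27.5% of all genes. Got2, the mitochondrial aspartate aminotransferase, fell 2.95-fold (-1.56 ± 0.054, edgeR adjusted p = 1.48e-12) and its cytosolic partner Got1 fell 1.83-fold (-0.87 ± 0.069, edgeR adjusted p = 2.18e-08). Prps1, which makes phosphoribosyl pyrophosphate, fell 2.03-fold (-1.02 ± 0.056, edgeR adjusted p = 2.61e-10).

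Among carriers, 4 of 6 were called lower and 1 higher in MYC off than in MYC on cells (27.4% and 27.5% of all genes). Slc29a2, a nucleoside transporter of the cell surface, had 6.741, 6.308 and 7.632 CPM with MYC on, 1.676, 2.518 and 1.846 CPM with MYC intermediate, and 0.504, 0.5941 and 0.19 CPM with MYC off, a 16.4-fold fall between the ends (-4.03 ± 0.27, edgeR adjusted p = 2.98e-09). Slc25a33, a pyrimidine nucleotide carrier of mitochondria, fell 5.68-fold (-2.51 ± 0.13, edgeR adjusted p = 1.39e-10). Its exons share 14.9% of their bases with an antisense gene. Its window held an E-box 8 bases before the start, and the windows of Nme2, Nme4, Dctd and Slc29a2, read as well, held none, against 8.09% of all genes with one. The related carrier Slc25a36 was 1.24-fold lower (-0.31 ± 0.088, edgeR adjusted p = 0.00595), a call lost with library totals alone and without MYC on replicate 2 or 3 or any 1 MYC off library (edgeR adjusted p = 0.0103 to 0.0256). Slc29a3, a nucleoside transporter of lysosomes, was 1.44-fold higher (0.53 ± 0.075, edgeR adjusted p = 1.6e-05).

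Of 12 other salvage and nucleotide kinases tested, 6 were called lower and 3 higher in MYC off than in MYC on cells, against 27.4% and 27.5% of all genes, so the share called higher was near that of all genes. Nme2 had 9.84, 7.805 and 8.961 CPM with MYC on, 4.159, 5.109 and 4.98 CPM with MYC intermediate, and 1.26, 1.374 and 1.077 CPM with MYC off, a 7.34-fold fall between the ends (-2.88 ± 0.17, edgeR adjusted p = 4.92e-10). Its 1145 counts over the 9 libraries are uncertain because 48.9% of its exon bases are shared with Gm20390 and 3 annotated genes, Gm5425, Gm5566 and Gm7730, match its transcript at 97.2% to 97.8% identity. Nme6, a related mitochondrial protein, fell 2-fold (log2 SE 0.09, edgeR adjusted p = 9.31e-08). Dck, which salvages deoxycytidine, was 1.84-fold higher in MYC off than in MYC on cells (0.88 ± 0.087, edgeR adjusted p = 2.89e-07), with 404.3, 372.3 and 356.8 CPM with MYC off, against 204.8, 196.6 and 199.4 CPM with MYC on. The lowest fold change of the wider list, that of the mitochondrial kinase Nme4 (-4.44 ± 0.55, edgeR adjusted p = 3.81e-06), rested on 0, 2 and 4 counts with MYC off, against 25, 23 and 49 counts with MYC on, and was picked out after its value was seen. Cmpk1, the kinase for UMP and CMP, was 1.51-fold higher (0.60 ± 0.097, edgeR adjusted p = 6.2e-05).

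The thymidylate branch held both a deep fall and a rise. Dctd, the deaminase that turns dCMP into dUMP, had 27.65, 30.1 and 28.59 CPM with MYC on, 8.783, 9.515 and 9.403 CPM with MYC intermediate, and 1.638, 1.151 and 1.33 CPM with MYC off. That was a 21-fold fall between MYC off and MYC on (-4.39 ± 0.13, edgeR adjusted p = 2.7e-13), with MYC intermediate clear of both ends. Tyms, which methylates dUMP to dTMP, was 1.67-fold higher, with 403.6, 396.7 and 388.9 CPM with MYC off, against 229.8, 240.7 and 226.7 CPM with MYC on (0.74 ± 0.051, edgeR adjusted p = 4.07e-09). Dctpp1, which hydrolyzes dCTP, fell 3.66-fold (-1.87 ± 0.15, edgeR adjusted p = 3.31e-08). Like Rrm2, Tyms had most of its rise at the middle dose, 0.61 for MYC intermediate against MYC on (edgeR adjusted p = 1.39e-07) and 0.13 for MYC off against MYC intermediate (edgeR adjusted p = 0.0598).

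Of 5 partners and regulators of the reductase, 3 were called lower and 0 higher in MYC off than in MYC on cells (27.4% and 27.5% of all genes). Txnrd1, thioredoxin reductase, fell 1.43-fold (-0.52 ± 0.063, edgeR adjusted p = 2.82e-06), and its substrate Txn1 was 1.36-fold lower (-0.44 ± 0.1, edgeR adjusted p = 0.00153), a call lost without MYC off replicate 3 (-0.38, edgeR adjusted p = 0.0108). Of 6 breakdown genes tested among 14 listed, 2 were called lower and 1 higher, which is not far from 27.4% and 27.5% of all genes. Nt5c3, a nucleotidase for pyrimidine monophosphates, fell 1.58-fold (-0.66 ± 0.097, edgeR adjusted p = 2.17e-05), and the related Nt5c3b was 1.19-fold higher (0.25 ± 0.057, edgeR adjusted p = 0.00115).

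**Figure D5:**
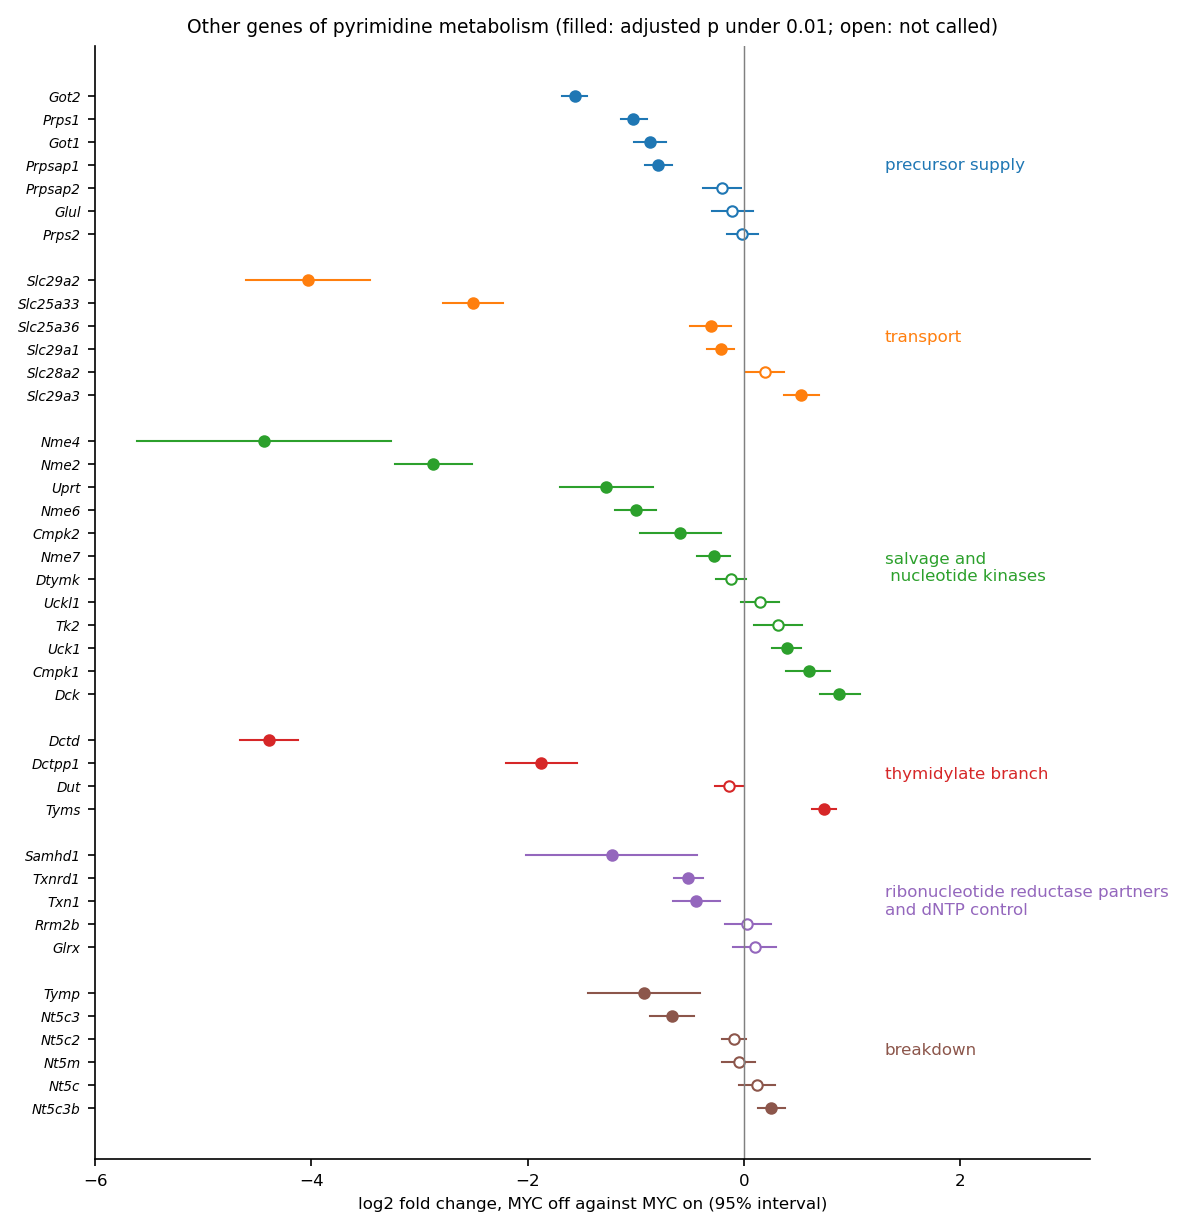
Log2 fold change for MYC off against MYC on (x axis) of 40 of the 42 tested genes of the wider pyrimidine list (y axis), grouped by role, with 95% intervals from the edgeR fit, filled points called at an adjusted p under 0.01 and open points not called. Dctd (-4.39) and Slc29a2 (-4.03) lie far to the left, beside Nme4 (-4.44), and Dck (0.88) and Tyms (0.74) are the furthest to the right.

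The cell cycle lists did not run alike. Of 35 S phase genes, 11 were called higher and 9 lower in MYC off than in MYC on cells (median log2 fold change -0.01), near the 27.5% and 27.4% of all genes. Between MYC intermediate and MYC on, 17 were called higher and 3 lower (median 0.16), against 17.4% and 17.2% of all genes, and between MYC off and MYC intermediate 0 were called higher and 13 lower (median -0.17), against 9.95% and 14.7%. Of 24 G2/M genes, 21 were called higher and 0 lower in MYC off than in MYC on cells (median 0.47), 21 higher and 0 lower in MYC intermediate than in MYC on cells (0.37), and 4 higher and 0 lower in MYC off than in MYC intermediate cells (0.11), beside the same shares of all genes. The part of cell cycle distribution in the levels of Rrm2, Tk1 and Tyms was not tested.

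The 10 genes also differed in which other genes they resembled. Likeness was the mean absolute difference between centered log2 CPM over the 9 libraries, searched over 8980 protein-coding genes and given as a description. Cad was nearest to Cdk6 (0.123) and Rrp9 (0.14), and Dhodh to Cadm1 (0.0512) and Eef1g (0.0663). Cdk6 shared the profile of Cad at a lower level, with means of 72.44 CPM with MYC on, 35.04 CPM with MYC intermediate and 10.06 CPM with MYC off. Umps was nearest to Hspa4 (0.0361) and Dtwd1 (0.0373), Ctps to Mrpl16 (0.0251) and Gpn1 (0.0383), Uck2 to Tamm41 (0.0322) and Tsfm (0.0366), and Nme1 to Prmt1 (0.0409) and Aimp2 (0.0558). Tk1 was nearest to Gpr25 (0.0217) and Atp8b2 (0.0248), Rrm1 to Wapl (0.0201) and 4833439L19Rik (0.0225), Ctps2 to Ngrn (0.0202) and C330007P06Rik (0.0334), and Rrm2 to Hemgn (0.032) and Atl2 (0.0523). Among the 10 genes themselves, Umps and Uck2 were the closest pair (0.0714), followed by Umps and Ctps (0.0893), while Cad stood at least 0.316 from every other member.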

How the data were processed

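RNA from 9 libraries was sequenced by the authors as oligo(dT)-primed cDNA, with a kit that does not mark strand. The submitters' notes name cutadapt 1.16, STAR 2.5.4b, featureCounts and mm10, and the strand and multimapping settings of the counting are not given in the sources used here. The raw counts deposited for each gene, whole numbers, entered all tests. The authors also deposited a score of reads per kilobase, FPKM values and a fraction giving the rank within a library, used only to check the files, and TPM values used for levels per length. No column of the deposited tables held a comparison. GENCODE M21 gave positions, and identifier versions and exon lengths matched for all 10 genes.

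Counts were tested in R 4.3.3 with edgeR 4.0.16 (TMM scaling, default count filter, 14098 genes, all 9 libraries in 1 fit, group as the term, two-sided). The SE is the absolute log2 fold change over the square root of the F statistic. The threshold of a call was an adjusted p of 0.01. The step was tested on simulated data. DESeq2 1.42.0, other scalings and filters, a replicate block and leaving out each library served as alternatives. Ratios added 0.5 reads to each gene. Deviations from the group means correlated between MYC off and MYC on libraries with the same number (r = 0.38, 0.25 and 0.22 over 9946 genes). Those of MYC intermediate with MYC on (0.13, -0.18 and -0.16) and with MYC off (0.37, 0.03 and 0.08) did so only in part. Between libraries with different numbers, r ran from -0.38 to 0.15 for MYC off and MYC on. It ran from -0.23 to 0.38 for MYC intermediate and MYC on, and from -0.26 to 0.26 for MYC intermediate and MYC off.

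The genes, lists and tests were chosen with earlier results of these data known. Named beside the 10 genes were hMYC, Myc, the paralogs Nme2, Rrm2b, Tk2 and Uck1, up to 4 called genes per role with the largest fold change for MYC off against MYC on and a mean of at least 5 CPM in 1 group, and the 2 most alike protein-coding genes per member with a mean of at least 5 CPM. Limits for a count of 0 rest on 3 counts and, PCR duplicates being untagged, cover no more than counting error. Transcripts were compared by BLAST at 95% identity over at least 200 bases, a length set after shorter matches proved numerous. Values of a few listed genes are not reported here.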

Additional observations from a re-analysis of the deposited data

How the results depend on the processing

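Of the 30 fold changes of the 10 genes, 26 kept direction and call under all 16 alternatives, and the exceptions were Ctps2 and Rrm1 in MYC intermediate against MYC on, Rrm1 in MYC off against MYC on, and Rrm2 in MYC off against MYC intermediate. Ctps2 in MYC intermediate against MYC on ran from -0.066 to 0.032 when 1 library was left out, and Rrm2b in MYC off against MYC on from -0.021 to 0.11, so neither had a stable sign. Dhodh lay 0.0056 above its midpoint without a count filter, and between -0.029 and 0.027 with 1 library left out. The number of the 10 genes off their midpoint was 1 in the analysis as reported, 3 without a count filter (Rrm2, Cad and Nme1), 2 with the replicate block, and 1 to 2 with 1 library left out, where Cad joined without MYC on replicate 3 or MYC intermediate replicate 3, and Nme1 without MYC off replicate 1. The replicate block changed no other call among the 10 genes. Counts of calls of both directions combined, among the 10 genes, the wider list and the ratios, did not otherwise move by over 1.5 times. By direction, Rrm2 became the 1 gene of the 10 called higher in MYC off than in MYC intermediate with library totals alone, DESeq2, no count filter and without MYC intermediate replicate 3 (adjusted p = 0.00329, 0.00741, 0.0072 and 0.00483 in that order), against 0 as reported. Depth limits the genes at low levels, such as Slc29a2, Nme2 and Nme4 in MYC off cells, more than the 10 genes, which had at least 868 counts in each library.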

Other observations

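De novo purine synthesis, the sister pathway that uses the same phosphoribosyl pyrophosphate, fell alongside the pyrimidine genes. Of 11 purine genes, all tested, 10 were called lower and 0 higher in MYC off than in MYC on cells (median log2 fold change -1.08, from -2.30 to -0.50), 9 lower and 0 higher in MYC intermediate than in MYC on cells (median -0.53), and 10 lower and 0 higher in MYC off than in MYC intermediate cells (median -0.61). Of all genes tested, 27.4%, 17.2% and 14.7% were called lower in the same comparisons, and the medians were 0.029, 0.00794 and 0.007.

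Of the annotated genes that match a transcript of the 10 genes, the antisense gene Gm15829 held the most reads, 10.8% of the count of Umps, over a match of 215 bases at 100% identity. That match corresponds to the overlap with the Umps exons on the opposite strand given above, not to a separate copy. Gm48455 matches Rrm2 at 95.5% identity over 419 bases and had 411 counts over the 9 libraries, against 625951 for Rrm2. Gm18699 matches Ctps at 96.7% identity over 243 bases and had 0 counts.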
